A study of Mus musculus with 10 samples.

Results

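The levels of 8 transcription factor genes, the AP-1 subunits Fos, Fosb, Fosl1, Fosl2, Jun, Junb and Jund together with Atf3, were followed in mouse muscle stem cells before and after culture. They were taken by gene symbol, with earlier results of these data known, and all 8 were found among the 12803 genes of the expression table. The cells came from limb muscles of young male C57BL/6 mice and were sorted as CD45- CD31- Sca1- VCAM+ cells. Fresh libraries (0 h, n = 3) were made straight after the sort. Vehicle libraries (24 h, n = 3) were made after culture with DMSO, and Tubastatin A libraries (24 h, n = 4) after culture with 40 µM of this HDAC6 inhibitor in DMSO. Both cultures used Ham's F-10 medium with 10% horse serum on plates coated with extracellular matrix, each library came from 1 animal, and the labels name no modified allele. The treatment tag of the fresh samples also reads vehicle, at 0 h, so whether they met DMSO is not clear, and they were grouped by title and time. Fresh and vehicle cells differ in time, plating and serum together, which cannot be told apart.

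AP-1 is a pair of basic leucine zipper (bZIP) proteins joined through their zippers. Jun proteins can pair with each other or with a Fos protein, whereas Fos proteins need a Jun partner. Most of these genes are immediate early genes, switched on within minutes of a signal by factors already present in the cell, and their RNA is short-lived. In muscle stem cells they are known as part of the early response to injury and to tissue dissociation, and Atf3 is a bZIP factor induced by many kinds of stress that also pairs with Jun proteins.

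The regulatory stretch before the start of these genes is known for cyclic AMP response elements (CRE), which bind CREB and ATF factors, and for elements that bind AP-1 itself. The 160 bases before the RefSeq start (assembly GRCm38.p6) are shown for the 5 genes in which a searched motif was found. In the stretches searched for Fosl2 and Jund none was found, and these 2 genes were also lower in culture. A link between the motifs and the fall was not tested. Capitals mark TGACG, the core of the CRE, on either strand (read as CGTCA in Atf3), and in Jun TGACATCA, the AP-1 element known from this promoter.
Fos (chr12:85473730-85473889, plus strand): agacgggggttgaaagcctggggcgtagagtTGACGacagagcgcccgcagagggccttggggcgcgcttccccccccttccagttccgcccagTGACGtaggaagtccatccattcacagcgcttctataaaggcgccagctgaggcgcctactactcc
Fosb (chr7:19310046-19310205, minus strand): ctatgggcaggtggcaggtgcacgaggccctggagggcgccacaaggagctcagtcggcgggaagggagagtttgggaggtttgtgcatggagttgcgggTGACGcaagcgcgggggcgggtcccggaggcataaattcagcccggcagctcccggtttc
Junb (chr8:84978749-84978908, minus strand): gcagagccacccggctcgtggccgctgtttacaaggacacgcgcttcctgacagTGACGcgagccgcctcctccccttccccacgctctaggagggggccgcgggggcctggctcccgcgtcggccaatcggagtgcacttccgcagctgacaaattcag
Jun (chr4:95052223-95052382, minus strand): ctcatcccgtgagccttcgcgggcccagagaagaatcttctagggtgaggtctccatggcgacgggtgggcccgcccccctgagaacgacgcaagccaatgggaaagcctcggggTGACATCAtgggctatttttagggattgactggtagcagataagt
Atf3 (chr1:191183334-191183493, minus strand): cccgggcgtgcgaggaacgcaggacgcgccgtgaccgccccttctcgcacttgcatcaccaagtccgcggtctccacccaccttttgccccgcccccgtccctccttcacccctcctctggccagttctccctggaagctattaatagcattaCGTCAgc

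Of the 8 genes, 7 had an entry in the RefSeq promoter table, and Fosl1 had none. The search covered 250 bases before and 50 after the start on both strands. The RefSeq start used was not always at the edge of the gene bounds given below. The 160 bases before it ended at 70697738 for Jund, short of those bounds, and lay within them for Fosl2 and Atf3. Other starts of these genes were not searched. TGACG was found in 4 of these 7 promoters, Fos (at -129 and -66 from the start), Fosb (-60), Junb (-106) and Atf3 (-7), and in 20.8% of 32851 mouse promoters of the same length. TGACATCA was found in Jun alone among the 7 (at -45) and in 3.62% of all promoters. The full CRE TGACGTCA and the AP-1 consensus TGACTCA were found in none of the 7, and in 1.79% and 5.20% of all promoters. TGACG lies within TGACGTCA, so both searches share their matches. Such a match describes letters only. Binding of AP-1 to these promoters was not measured.

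In GENCODE M21 (GRCm38), Fos lies on chromosome 12 from 85473890 to 85477273, Fosb on chromosome 7 from 19302696 to 19310051, Fosl1 on chromosome 19 from 5447547 to 5455946 and Fosl2 on chromosome 5 from 32135801 to 32157842. Jun lies on chromosome 4 from 95049034 to 95052222, Junb and Jund on chromosome 8 from 84974484 to 84978718 and from 70698949 to 70700616, and Atf3 on chromosome 1 from 191170296 to 191218039. Levels are given in RPKM, which divides reads by gene length and by a scaled library size, as mean ± SD over libraries. A log2 difference is a difference of mean log2(RPKM + 1) with its standard error (SE). The adjusted p is that of limma over all 12803 genes with Benjamini-Hochberg adjustment, and a gene is called higher or lower where it is under 0.05. Libraries of a group came from different animals, so the spread includes that between animals.

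Depth lay between 37.5M and 55.3M reads assigned to genes per library. These reads were 1.39 to 1.41 times the scaled library size behind RPKM in fresh libraries and 0.83 to 0.928 times in the cultured ones. Scaling by reads alone raised the log2 difference of a gene by a median of 0.50 in vehicle against fresh. This median shift was 0.07 in Tubastatin A against vehicle and 0.56 in Tubastatin A against fresh. The same scaling changed the calls of all genes in vehicle against fresh from 4096 higher and 4484 lower to 6365 higher and 2905 lower. The falls of 7 of the 8 genes described next held under each scaling tried, and Fosl1 is given with its values. All 10 muscle stem cell markers were measured, with a summed level of 2819 to 3789 RPKM in fresh, 1534 to 1759 in vehicle and 787 to 866 in Tubastatin A libraries. Most of the sum in both cultures was Myod1, at 757 ± 426, 1186 ± 101 and 539 ± 29.9 RPKM in that order. With vehicle 8 of the 10 were called lower than fresh, and Myod1 and Itga7 were not called. Chodl, 1 of the 8, was at 602 ± 23.1, 2.39 ± 0.393 and 4.49 ± 0.716 RPKM. Summed markers of fibro-adipogenic cells (6 of 6 genes) were at 265 to 681, 33.9 to 43.4 and 7.37 to 13.0 RPKM in the same order. Most of that sum was Col3a1, at 407 ± 207, 38 ± 4.96 and 6.50 ± 1.77 RPKM, while between the cultures Col1a1 was called higher (0.416 ± 0.231 and 1.87 ± 1.11 RPKM) and the other 4 were not called. Those of endothelial cells (6 of 6) were at 30.1 to 39.5, 1.71 to 2.0 and 4.69 to 5.60. Between the cultures only Tek of these was called, higher with Tubastatin A (0.879 ± 0.378 and 4.21 ± 0.590 RPKM), and the other 5 were not called. Markers of immune cells (2 of 6, Lyz2 and Cd68) were at 5.08 to 8.32, 0.691 to 0.890 and 2.51 to 3.89. Most of that sum in both cultures was Cd68, at 2.07 ± 0.878, 0.759 ± 0.102 and 2.96 ± 0.706 RPKM. It was called higher with Tubastatin A than with vehicle. Lyz2, at 4.17 ± 0.971, 0.0144 ± 0.00513 and 0.107 ± 0.0314 RPKM, was not called between the cultures. Pericyte and smooth muscle markers (5 of 5) were at 197 to 242, 174 to 239 and 11.2 to 61.9. Most of that sum was Acta2, at 212 ± 26.1, 212 ± 33.7 and 23.0 ± 25.1 RPKM, and the other 4 were called lower with vehicle than fresh, such as Rgs5 (7.69 ± 1.64 and 0.0599 ± 0.00869 RPKM). The tendon cell marker Scx was at 10.0 ± 4.07, 70.5 ± 4.95 and 4.14 ± 3.09 RPKM. Myofibre markers (6 of 7) were at 48.2 to 56.4 in fresh, 16.8 to 24.7 in vehicle and 5.00 to 6.01 in 3 Tubastatin A libraries, against 382 in Tubastatin A replicate 2. Within these lists Lyz2 and Lum had 0 recovered reads in 1 vehicle library each and Myh11 in 2 vehicle libraries, and no marker of these lists had 0 in all libraries of a group. The part of these cells in the results was not tested, and in bulk RNA fewer cells of a type and less RNA per cell cannot be told apart.

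After 24 h with vehicle the 8 genes were lower than in fresh cells. All 8 were called lower, where 67% of all genes were called and 35% called lower. The median log2 difference was -5.00, beside -0.03 over all genes. In 7 of the 8, all vehicle libraries were below all fresh libraries, against 35.8% of all genes, and in Fosl1 the ranges overlapped. Summed RPKM of the 8 genes was 12767 ± 5031 in fresh, 384 ± 16.1 in vehicle and 548 ± 35.1 in Tubastatin A libraries. This was 3.15% ± 1.32, 0.143% ± 0.0117 and 0.222% ± 0.00726 of the RPKM of all genes.

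With Tubastatin A the set divided. Fos, Junb, Jund and Atf3 were called higher than with vehicle, where 59.3% of all genes were called and 29.6% called higher. Fosl2 was called lower, where 29.7% of all genes were called lower, and Fosb, Fosl1 and Jun were not called. The median log2 difference of the 8 was 0.43, beside 0.02 over all genes. All Tubastatin A libraries were above all vehicle libraries in the same 4 genes (34.8% of all genes) and below them in Fosl2 (33.8%). All 8 genes were called lower in Tubastatin A than in fresh cells, where 64.9% of all genes were called and 35.2% called lower, with a median log2 difference of -4.17 beside -0.03 over all genes. In 7 of the 8, all Tubastatin A libraries were below all fresh libraries, against 33.3% of all genes. The 3 comparisons share their libraries pairwise, so their values are given side by side and were not tested against each other.

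**Figure D1:**
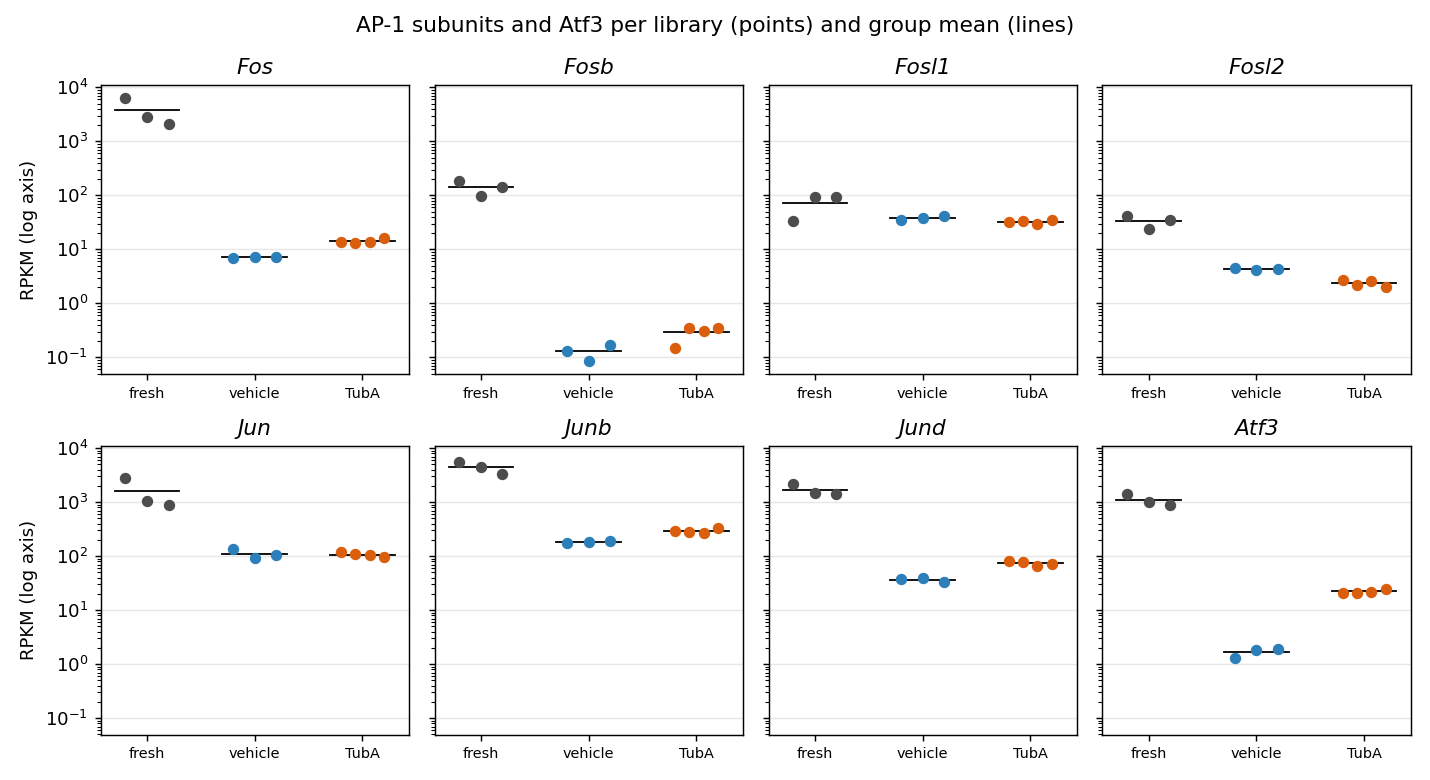
Level of each gene in each library, in RPKM on a log axis, for fresh, vehicle and Tubastatin A (TubA) libraries. Points are libraries and lines group means. Cultured levels of 7 genes lie below all fresh levels, Fosl1 overlaps, and Atf3 stands at 20.7 to 24.9 RPKM with Tubastatin A against 1.30 to 1.92 with vehicle.

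Fos encodes the founding Fos protein, a strong activator. In fresh libraries it was at 6344, 2789 and 2137 RPKM, which made it one of the 12 most abundant transcripts in each of them. The vehicle libraries held 6.81, 7.37 and 7.27 RPKM, or 743 to 768 reads each. The Tubastatin A libraries held 13.5, 13.1, 13.9 and 16.1 RPKM. The cultured libraries were thus close together within a group, all below the fresh ones, and those with Tubastatin A all above those with vehicle. Fos was 526-fold lower in vehicle than in fresh cells by mean RPKM, a log2 difference of -8.69 (SE 0.30, adjusted p = 5.0e-10). It was 1.98-fold higher with Tubastatin A than with vehicle, a log2 difference of 0.89 (SE 0.28, adjusted p = 0.016). That call ended with a pseudocount of 5 RPKM, which left a difference of 0.65 (adjusted p = 0.068). Against fresh cells the difference with Tubastatin A was -7.80 (SE 0.28), the lowest of all 12803 genes at this pseudocount. By mean RPKM it was 265-fold lower.

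Fosb, which encodes a second activating Fos protein, fell to few reads in culture. Its fresh libraries stood at 187, 96.7 and 140 RPKM. With vehicle 0.130, 0.0860 and 0.172 RPKM remained, which is 23 to 48 reads per library, and with Tubastatin A 0.151, 0.354, 0.308 and 0.349 RPKM, or 59 to 127 reads. The 3 highest cultured values all belonged to Tubastatin A, and its replicate 1 lay within the vehicle range. Fosb was 1095-fold lower in vehicle than in fresh cells (log2 difference -6.93, SE 0.20, adjusted p = 1.3e-10) and 487-fold lower with Tubastatin A. Between the cultures the log2 difference was 0.19 (SE 0.18, adjusted p = 0.40, 95% interval -0.21 to 0.59). At such levels a pseudocount of 1 RPKM compresses any difference. With 0.1 RPKM it was 0.75 (adjusted p = 0.031), and by voom, limma's method for reads, it was 1.10 on recovered reads (adjusted p = 0.11).

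Fosl1 encodes Fra-1, which lacks the activation domain of Fos. It was the only one of the 8 whose levels overlapped between fresh and cultured cells. Fresh libraries held 33.2, 93.7 and 91.9 RPKM, vehicle libraries 34.5, 38.1 and 41.0, and Tubastatin A libraries 32.0, 33.3, 29.6 and 35.4. The first fresh library was thus at the level of the cultured ones, and the other two were higher. The log2 difference of vehicle from fresh was -0.79 (SE 0.31, adjusted p = 0.038). It rested on which fresh libraries entered, with -1.27 (adjusted p = 2.1e-06) without replicate 1, -0.54 (adjusted p = 0.14) without replicate 2 and -0.55 (adjusted p = 0.16) without replicate 3. With reads in the table alone as scale it was -0.19 (adjusted p = 0.58), and the call was lost under 13 of 22 alternatives. With Tubastatin A the difference from fresh was -1.0 (SE 0.29, adjusted p = 0.0088), a call lost on the TPM scale (-0.29, adjusted p = 0.34), with reads alone (-0.33, adjusted p = 0.31), without the 10 most abundant and mitochondrial genes (-0.39, adjusted p = 0.20) and without fresh replicate 3 (-0.76, adjusted p = 0.053). From vehicle it was -0.21 (adjusted p = 0.55, 95% interval -0.84 to 0.41).

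Fosl2 encodes Fra-2, the other Fos protein without that domain, and was the single member called lower with Tubastatin A than with vehicle. It was at 42.1, 24.4 and 34.8 RPKM in fresh libraries. Vehicle libraries held 4.56, 4.08 and 4.28 RPKM and Tubastatin A libraries 2.74, 2.24, 2.62 and 2.0. The 3 groups were in steps without overlap. The log2 difference was -2.68 (SE 0.18, adjusted p = 8.8e-08) for vehicle against fresh and -0.65 (SE 0.16, adjusted p = 0.0052) for Tubastatin A against vehicle, a 1.79-fold lower mean. With a pseudocount of 5 RPKM the latter was -0.33, just outside the threshold (adjusted p = 0.0503).

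Jun, the founding Jun protein and the partner with which Fos forms classical AP-1, stood at 2796, 1057 and 879 RPKM in fresh libraries. It kept 138, 92.5 and 105 RPKM with vehicle and 119, 108, 103 and 95.5 with Tubastatin A. Both cultures were far below every fresh library and covered the same range. Jun was 14.1-fold lower in vehicle than in fresh cells (log2 difference -3.63, SE 0.35, adjusted p = 2.0e-06). Its difference between the cultures was -0.05 (SE 0.32, adjusted p = 0.90), with a 95% interval from -0.76 to 0.65 that leaves room for a change of either sign.

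Junb, a Jun protein that activates many sites less strongly than Jun, was the most abundant of the 8 by mean RPKM in every group. It was at 5474, 4391 and 3314 RPKM in fresh libraries, at 176, 183 and 193 with vehicle and at 296, 286, 264 and 337 with Tubastatin A. Every Tubastatin A library exceeded every vehicle library. The log2 difference was -4.54 (SE 0.20, adjusted p = 3.8e-09) for vehicle against fresh and 0.68 (SE 0.19, adjusted p = 0.0090) for Tubastatin A against vehicle, a 1.61-fold higher mean.

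Jund, the Jun protein that most resting cells hold at a steady level, also fell here. Fresh libraries had 2156, 1479 and 1411 RPKM, vehicle libraries 37.3, 39.4 and 32.7, and Tubastatin A libraries 81.4, 78.2, 65.3 and 70.9. The vehicle and Tubastatin A ranges were well apart. Jund was 46.1-fold lower with vehicle than fresh (log2 difference -5.47, SE 0.17, adjusted p = 2.8e-10). It was 2.03-fold higher with Tubastatin A than with vehicle (log2 difference 1.0, SE 0.16, adjusted p = 0.00023).

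Atf3 showed the greatest rise of the 8 with Tubastatin A. Its fresh libraries stood at 1421, 1011 and 894 RPKM. With vehicle 1.30, 1.81 and 1.92 RPKM remained (134 to 185 reads), and with Tubastatin A 20.7, 21.2, 22.0 and 24.9. Each Tubastatin A library exceeded each vehicle library by more than the spread of either group. Atf3 was 662-fold lower in vehicle than in fresh cells (log2 difference -8.68, SE 0.17, adjusted p = 1.0e-11). It was 13.3-fold higher with Tubastatin A than with vehicle, a log2 difference of 3.12 (SE 0.16, adjusted p = 2.0e-08), which ranked 32 among the rises of all genes. With Tubastatin A its mean was 0.0200 times that of fresh cells (log2 difference -5.56, SE 0.16). Across 22 alternatives the difference between the cultures ranged from 2.03 to 3.75, the lowest with a pseudocount of 5 RPKM.

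**Figure D2:**
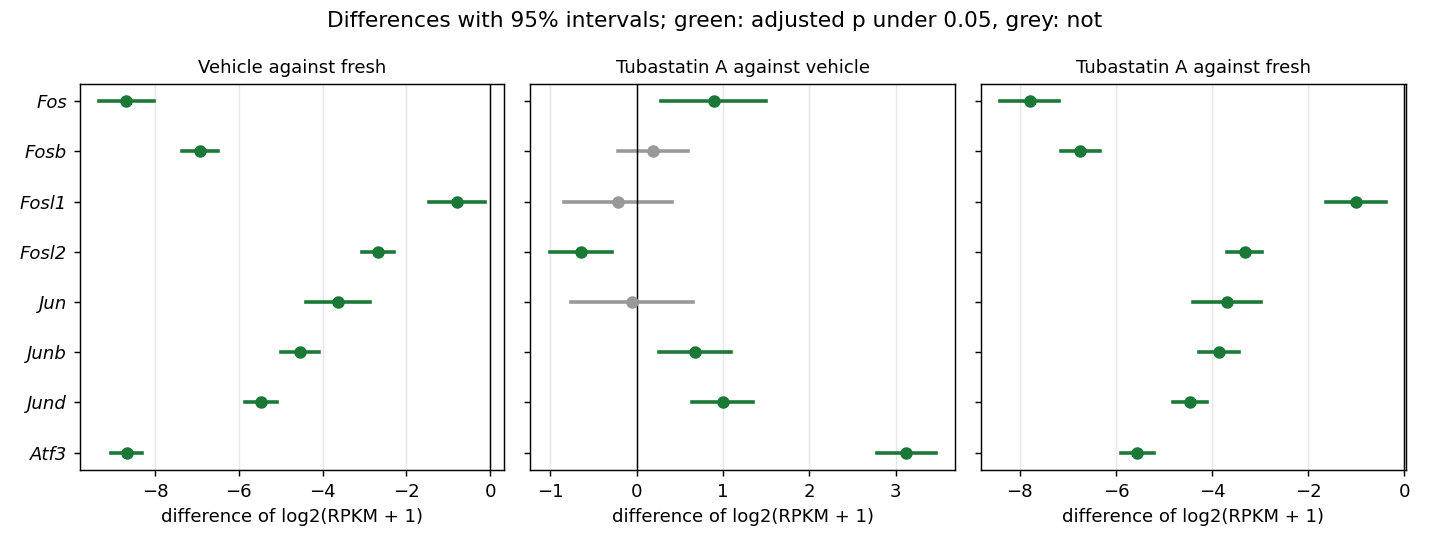
Differences of mean log2(RPKM + 1) for the 8 genes in the 3 comparisons. Points are estimates and bars 95% intervals from limma, green where the adjusted p over all genes is under 0.05 and grey otherwise. All 8 intervals lie below 0 against fresh cells, and with Tubastatin A against vehicle the estimates run from -0.65 for Fosl2 to 3.12 for Atf3.

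The make-up of the family changed with culture. RPKM is per length, so levels can be compared between genes. In fresh libraries Junb made up 35.7% ± 5.4 of the summed RPKM of the 8 genes, Fos 28% ± 5.61, Jund 13.7% ± 2.09, Jun 11.6% ± 3.11 and Atf3 9.0% ± 1.19. With vehicle Junb made up 48.1% ± 3.35, Jun 29.0% ± 4.91, Fosl1 9.90% ± 1.09 and Jund 9.53% ± 1.15, while Fos was at 1.87% ± 0.152 and Atf3 at 0.439% ± 0.0981. With Tubastatin A the shares were 53.9% ± 2.65 for Junb, 19.5% ± 2.10 for Jun, 13.5% ± 1.10 for Jund, 5.94% ± 0.212 for Fosl1, 4.06% ± 0.336 for Atf3 and 2.59% ± 0.213 for Fos. Cultured cells thus held mostly Junb and Jun RNA, and Fosl1 took the first place among the Fos genes that Fos held in fresh cells. The summed Jun genes exceeded the summed Fos genes 2.07-fold ± 0.428 in fresh, 6.75-fold ± 0.772 in vehicle and 9.64-fold ± 0.429 in Tubastatin A libraries. The ranges of these ratios, 1.58 to 2.33, 6.28 to 7.64 and 9.32 to 10.3, did not overlap. Shares and ratios within a library do not depend on its scaling.

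**Figure D3:**
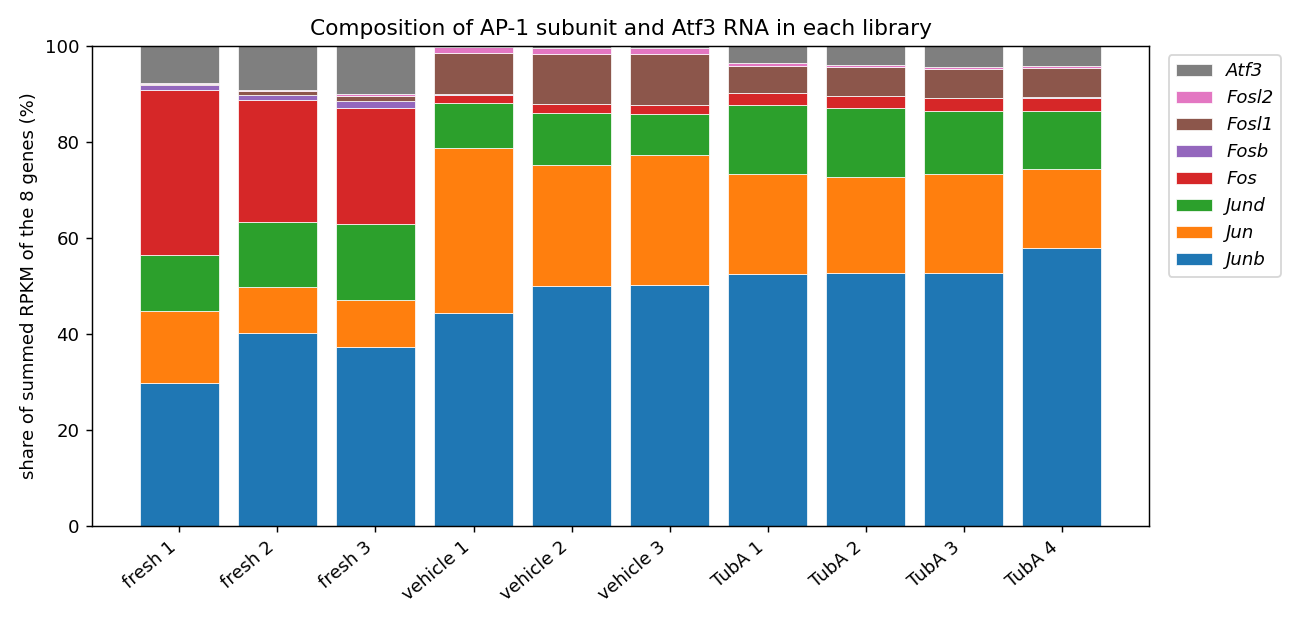
Share of each gene in the summed RPKM of the 8 genes, in percent, with 1 stacked bar per library. Fos fills 24.0% to 34.4% of the fresh bars and 1.71% to 2.78% of the cultured ones, and Junb and Jun fill most of the bars of both cultures.

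The order of the 8 genes by mean RPKM was Junb, Fos, Jund, Jun, Atf3, Fosb, Fosl1 and Fosl2 in fresh cells. There only the ranges of Atf3 and Fosb and of Fosb and Fosl1 were apart, and those of the other neighbours overlapped, although Fos was above Jund within each of the 3 libraries. With vehicle the order was Junb, Jun, Fosl1, Jund, Fos, Fosl2, Atf3 and Fosb, and all neighbours were apart except Fosl1 and Jund, whose ranges overlapped. With Tubastatin A it was Junb, Jun, Jund, Fosl1, Atf3, Fos, Fosl2 and Fosb, with all neighbours apart.

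The fresh libraries differed among themselves more than those of either culture, relative to the mean, in 7 of the 8 genes. Fosb was the exception, with an SD of 32.1% of its mean in fresh, 33.1% in vehicle and 32.7% in Tubastatin A libraries. For Fos these values were 60.3%, 4.21% and 9.27%. Fresh replicate 1 held 2.58 times the mean of the other two for Fos, 2.89 times for Jun and 1.42 to 1.58 times for Fosb, Fosl2, Junb, Jund and Atf3, but 0.357 times for Fosl1. Over all genes the median of this ratio was 1.0, and the central 95% of genes lay between 0.383 and 2.61. Without that library Fos was still lower in vehicle than in fresh cells by a log2 difference of -8.23, Jun of -3.12, Junb of -4.37, Jund of -5.27 and Atf3 of -8.48, and all 8 genes stayed called lower in both cultures. With Tubastatin A replicate 2, the library rich in myofibre markers, left out, 5 of the 8 genes were again called between the cultures, 4 higher and 1 lower.

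The other immediate early genes of a fixed list, 16 genes of the Egr, Ier, Klf and Nr4a families with Myc and Btg2, were read in the same way. For this and the next lists, the shares over all genes are 32% called higher and 35% lower with vehicle against fresh, and 29.6% and 29.7% with Tubastatin A against vehicle. With reads in the table alone as scale, 6365 of all 12803 genes were called higher and 2905 lower with vehicle against fresh. The median log2 difference over all genes was then 0.34. With vehicle 15 of the 16 listed genes were called lower than fresh and 1 higher, with a median log2 difference of -3.90. Egr1, a zinc finger factor induced by the same signals as Fos, fell from 6394 ± 2480.5 to 199 ± 24.3 RPKM (log2 difference -4.94, adjusted p = 1.2e-08). With Tubastatin A against vehicle 9 were called higher and 3 lower, with a median of 0.55. Egr1 was at 590 ± 53.0 RPKM (1.56, adjusted p = 0.00015). Ier3, an early gene that modulates cell survival, was at 169 ± 44.3 in fresh, 5.80 ± 1.51 in vehicle and 128 ± 11.8 RPKM in Tubastatin A libraries (4.26, adjusted p = 5.8e-09). Klf2, a zinc finger factor of quiescent cells, went the other way, from 12.3 ± 1.90 with vehicle to 1.55 ± 0.111 RPKM with Tubastatin A (-2.37, adjusted p = 3.5e-08).

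Other bZIP factors that can pair with AP-1 proteins were followed through 15 measured genes of 17 listed. With vehicle 8 were called lower than fresh and 1 higher (median log2 difference -0.45). The median was 0.10 with reads in the table alone as scale, beside 0.34 over all genes. On the TPM scale it was 0.09, beside 0.33 over all genes. With Tubastatin A against vehicle 10 were called higher and 3 lower (median 0.50). Mafk and Maff, small Maf genes whose proteins lack an activation domain, had the greatest differences from fresh cells among the 15. Mafk was at 548 ± 55.9 RPKM in fresh, 16.9 ± 1.29 in vehicle and 89.4 ± 7.24 in Tubastatin A libraries, with log2 differences of -4.94 (adjusted p = 7.7e-11) and 2.34 (adjusted p = 2.0e-08). Maff was at 444 ± 58.4, 12.2 ± 1.44 and 43.5 ± 0.980 RPKM. Crem, a CREB relative with cyclic AMP-induced repressor forms, was at 28 ± 7.39, 1.91 ± 0.0864 and 8.10 ± 0.467 RPKM. Jdp2, which pairs with Jun and represses AP-1 sites, fell in both steps, from 96.3 ± 10.1 to 38.4 ± 4.00 with vehicle (-1.30, adjusted p = 4.6e-06) and 12.6 ± 1.70 RPKM with Tubastatin A (-1.53 against vehicle, adjusted p = 1.2e-06).

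Atf3 is a known target of ATF4 in the integrated stress response, and 15 genes of that response were listed. With vehicle 9 were called lower and 4 higher than fresh (median log2 difference -1.32, but -0.75 with reads in the table alone as scale), and with Tubastatin A 11 were called higher and 1 lower than with vehicle (median 0.57). Ddit3, which encodes the stress factor CHOP, was at 54.0 ± 6.44 RPKM in fresh, 7.07 ± 0.0965 in vehicle and 50.4 ± 5.88 in Tubastatin A libraries. Its log2 difference between the cultures was 2.66 (adjusted p = 7.2e-09). Ppp1r15a, which encodes the phosphatase subunit GADD34, was at 2106 ± 384, 49.6 ± 2.10 and 221 ± 36.6 RPKM, and the chaperone gene Hspa5 at 7953 ± 1156, 314 ± 35.5 and 1972 ± 486 RPKM. Asns, asparagine synthetase, is also a target of ATF4 but was higher in culture, at 3.91 ± 2.29, 93.4 ± 6.26 and 101 ± 16.9 RPKM. It did not differ between the cultures beyond the threshold (0.10, adjusted p = 0.78).

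**Figure D4:**
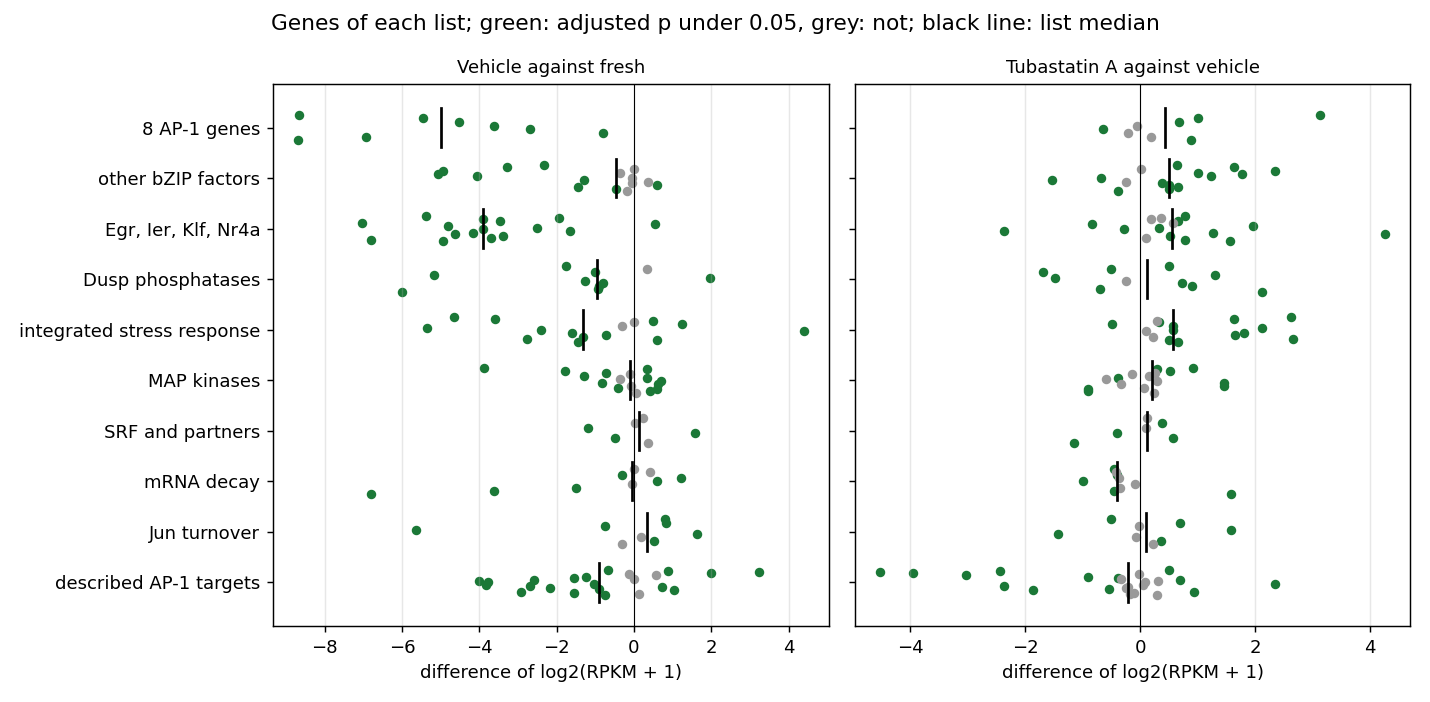
Differences of mean log2(RPKM + 1) of the genes of each list for vehicle against fresh (left) and Tubastatin A against vehicle (right). Points are genes, green where the adjusted p is under 0.05, and black lines list medians. Against fresh cells the 8 AP-1 genes have a median of -5.00 and the Egr, Ier, Klf and Nr4a list one of -3.90.

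Upstream of AP-1, MAP kinases phosphorylate the factors that switch these genes on, and of 16 listed kinases 6 were called higher and 6 lower with vehicle than fresh (median log2 difference -0.09). With reads in the table alone as scale these were 9 and 3 (median 0.46, beside 0.34 over all genes). With Tubastatin A against vehicle 5 were called higher and 3 lower (median 0.20), and 8 and 3 with reads in the table alone as scale (median 0.26). Map3k8, a kinase that activates the ERK pathway, was at 18.1 ± 2.59 RPKM in fresh, 0.284 ± 0.0484 in vehicle and 1.44 ± 0.216 in Tubastatin A libraries. Mapk9, the Jun kinase JNK2, was at 11.9 ± 0.577, 11.2 ± 0.659 and 32.5 ± 1.83 RPKM (1.46 between the cultures, adjusted p = 1.4e-07). Serum response factor and its partners, which act on the Fos promoter, were followed through 6 measured genes. Of these, 1 was called higher and 2 lower with vehicle than fresh (median 0.14). Scaled by reads in the table alone, 4 were higher and 1 lower (median 0.51, beside 0.34 over all genes). With Tubastatin A against vehicle 2 were called higher and 2 lower (median 0.11), and Srf itself was at 45.9 ± 4.19 with vehicle and 20.1 ± 2.21 RPKM with Tubastatin A (-1.16, adjusted p = 0.00014). Of 10 dual-specificity phosphatases, which switch MAP kinases off, 8 were called lower and 1 higher with vehicle than fresh (median -0.97, but 6 and 2 with a median of -0.41 with reads in the table alone as scale). Of the same 10, 5 were called higher and 4 lower with Tubastatin A than vehicle (median 0.13). Dusp1 was at 1082 ± 193, 15.7 ± 1.60 and 72.5 ± 13.7 RPKM, whereas Dusp10 was at 73.5 ± 12.8, 36.0 ± 2.35 and 10.5 ± 0.797 RPKM.

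Genes that act on the stability of the RNA or protein of AP-1 factors were followed too. Of 9 genes acting on AU-rich elements, which mark Fos and Jun RNA for decay, 4 were called lower and 2 higher with vehicle than fresh. Their median log2 difference was -0.04. It was 0.55 with reads in the table alone as scale, beside 0.34 over all genes. With Tubastatin A against vehicle 4 were called lower and 1 higher (median -0.40). Zfp36, the decay factor tristetraprolin, was at 1512 ± 513 RPKM in fresh, 12.0 ± 1.35 in vehicle and 37.9 ± 4.06 in Tubastatin A libraries. Of 8 measured genes of Jun protein turnover, 4 were called higher and 2 lower with vehicle than fresh (median 0.34, but 0.80 with reads in the table alone as scale), and 3 higher and 2 lower with Tubastatin A than vehicle (median 0.10). Trib1, an adaptor of the COP1 ubiquitin ligase, was at 315 ± 74.1, 5.17 ± 0.245 and 17.4 ± 1.31 RPKM.

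Of 23 measured genes described as AP-1 targets, 14 were called lower and 5 higher with vehicle than fresh (median log2 difference -0.91, but -0.53 with reads in the table alone as scale). With Tubastatin A against vehicle 9 were called lower and 4 higher (median -0.21), a share near the 59.3% of all genes called, and with Tubastatin A against fresh 16 lower and 1 higher (median -1.65). Ccl2, a chemokine gene, was lower at each step, at 209 ± 82.2, 29.8 ± 1.88 and 5.01 ± 0.826 RPKM. Ccnd1, which encodes the G1 cyclin D1, was at 10.9 ± 3.84, 45.8 ± 8.88 and 2.03 ± 0.327 RPKM. Tnc, which encodes the matrix protein tenascin C, followed the same order at 3.49 ± 1.60, 39.7 ± 4.19 and 0.776 ± 0.188 RPKM. Between the cultures their log2 differences were -3.94 (adjusted p = 2.0e-08) and -4.52 (adjusted p = 1.3e-08). Mmp14, a membrane-bound matrix protease, was at 43.9 ± 2.52, 4.90 ± 0.571 and 10.3 ± 1.29 RPKM.

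The genes whose profile over the 10 libraries was most like each member were sought among the 5521 other genes whose log2(RPKM + 1) averaged 3 or more. Likeness is the root mean square difference of log2(RPKM + 1) after each gene is centred on its own mean, and the libraries share scaling and groups, so it is a description. Nearest to Fos was Slc10a6 (0.37), a transporter gene, at 507 ± 70.4 RPKM in fresh, 0.730 ± 0.117 in vehicle and 1.5 ± 0.283 in Tubastatin A libraries, followed by Chodl and Cxcl1. Nearest to Fosb were Nr4a1 (0.34), Chodl and Cebpd, and nearest to Fosl2 Matn2 (0.22), Nfkbie and Deptor. Fosl1 was nearest to Eif3j1 (0.15), Tubb6 and Ociad2. Eif3j1, which encodes a translation initiation subunit, was at 47.9 ± 17.7, 25.9 ± 0.706 and 20.9 ± 1.02 RPKM. Nearest to Jun were Hsph1 (0.31), Zfp36l1 and Spry1, to Junb Trf (0.17), Hspb1 and Heyl, and to Jund Edn3 (0.16), Heyl and S1pr3. Nearest to Atf3 were Nppc (0.29), Tnfaip6 and Hspa1a. Nppc, which encodes C-type natriuretic peptide, was at 1059 ± 515, 1.05 ± 0.318 and 14.5 ± 0.738 RPKM. Reads of Hspa1a may not be separable from those of its near-identical copy.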

How the data were processed

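RNA was amplified from 5 ng with SMART-Seq v4 after selection of polyadenylated transcripts, and sequenced in paired reads of 150 bp, per the labels' protocols. The submitters' processing notes name mm10, STAR, Trim Galore, edgeR and Subread with featureCounts, without versions. The deposited table holds RPKM made by the authors. With GENCODE M21 exon lengths, available for 99.1% of 12803 symbols, whole reads (within 0.05 reads, or 0.005% of large counts) were recovered in every library for 94.8% of genes, which gave depths and scaled library sizes. Use of strand is not given in the sources used here.

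Values as log2(RPKM + 1) were fitted with limma 3.58.1 in R 4.3.3, with a variance trend and 1 model of 3 groups over all genes, and the fit was tested on simulated data. No gene was left out. Alternatives were pseudocounts of 0.1 and 5 RPKM, other scalings, a low filter, voom on recovered reads of 11899 genes, a fit of the groups compared, a replicate block and each library left out. Python 3.11.15 made summaries and figures. The 8 genes, gene lists and tests were chosen with earlier results of these data known. From each list up to 4 genes per comparison with the lowest adjusted p, and the 3 genes most like each member, could be named. A gene named in 1 comparison may be given in another. A further list of cell type markers is not reported here.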

Additional observations from a re-analysis of the deposited data

Results flagged for a closer look

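Among 23 values with 4 Tubastatin A libraries, 2 had a library far from the others, and chance gives about 1 in 20. The share of Junb in the summed RPKM of the 8 genes was 57.9% in replicate 4 against 52.4% to 52.7% in the other three, a gap of 0.937 of the range, past Dixon's 95% critical value for 4 samples. The share of Fosb was 0.0268% in replicate 1 against 0.0599% to 0.0652% in the others, a gap of 0.862 of the range, and rested on 59 reads in that library.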

How the results depend on the processing

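The falls of Fos, Fosb, Fosl2, Jun, Junb, Jund and Atf3 in both cultures, and the rises of Junb, Jund and Atf3 with Tubastatin A against vehicle, held in direction and call under all 22 alternatives. The cause of the changes given next was not tested. With a pseudocount of 5 RPKM, 3 members were called between the cultures and 0 of them lower, against 5 and 1. In a fit of the 2 groups compared, 2 were lower, with Fosl1 (adjusted p = 0.0498) added to Fosl2, and Fosb was higher (adjusted p = 0.030). The difference of Jun between the cultures, -0.05, was 0.066 on the TPM scale, 0.061 with upper quartile scaling and 0.025 with reads in the table alone. It was 0.12 with the sum of RPKM without the 10 most abundant and mitochondrial genes and 0.10 without vehicle replicate 1, and was called in none of these. Leaving out 1 library at a time gave -0.18 to 0.10. The fall of Fosl1 was lost under 13 alternatives with vehicle and 4 with Tubastatin A.

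Scaling moved the calls over all genes. For vehicle against fresh, 4096 higher and 4484 lower became 6280 and 2892 on the TPM scale and 6365 and 2905 with reads in the table alone, an alternative chosen after seeing the data. For Tubastatin A against fresh, 3811 and 4503 became 7004 and 2481 on the TPM scale, 6612 and 2697 without the 10 most abundant and mitochondrial genes, and 6916 and 2590 with reads alone.

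Each library is 1 animal, and the labels do not say that a replicate number is shared between groups. Whether the numbers pair the samples is thus not known. The 9 same-numbered pairs had correlations of their deviations from -0.19 to 0.39, with 5 above 0.1. Not every library correlated best with its own number. With the replicate block 8503 genes were called for vehicle against fresh (8580 without it), 7136 between the cultures (7594) and 7888 for Tubastatin A against fresh (8314), and no call of the 8 genes changed. Depth limits Fosb in culture, at 23 to 127 reads.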
